A study of Mus musculus with 8 samples.

Results

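The epithelial-mesenchymal transition (EMT) regulators were taken as a list of 10 named genes, the transcription factors that drive the transition and the epithelial regulators that oppose them. Of these, 9 were represented by a probe set that names no other gene, out of 22180 genes measured in that way. The drivers were Snai1, Snai2, Zeb1, Twist1 and Twist2, and the opposing epithelial regulators were Esrp1, Esrp2, Grhl2 and Ovol2. Zeb2 is named only by 2 probe sets that also name another gene, so it was not analysed here.

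In EMT, epithelial cells lose cell-cell junctions and apical polarity and gain motility, and Snail (Snai), Zeb and Twist proteins are the transcription factors best known for starting it. Snail and Zeb proteins repress junction genes such as Cdh1 by binding E-box motifs, and Twist proteins are basic helix-loop-helix factors that activate mesenchymal genes. On the epithelial side, Esrp1 and Esrp2 are splicing regulators that keep epithelial isoforms, while Grhl2 and Ovol2 are transcription factors that sustain junction genes and hold down Zeb1. In liver tumours the programme is usually read against the hepatocyte and biliary identity of the cells, and biliary epithelium normally carries more cytokeratin 19 than hepatocytes do.

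The study compared clonal cell lines from mouse tumours of the 2 main kinds of primary liver cancer, intrahepatic cholangiocarcinoma (ICC, bile duct type) and hepatocellular carcinoma (HCC, hepatocyte type). Both kinds arose in C57BL/6 mice and were driven by c-Myc and NrasG12V from the pCaMIN vector. The plasmid had been delivered by focal in vivo electroporation for ICC and by hydrodynamic tail-vein injection for HCC, so tumour type and delivery route cannot be told apart. The ICC lines were ICC9 and ICC10, labelled female, and ICC2.7 and ICC2.9, labelled male. The HCC lines were HCC1 and HCC4, labelled male, and HCC2.1 and HCC2.4, labelled female. All 8 lines were untreated, grown in DMEM with 10% fetal calf serum at 7.5% CO2, and measured on 1 Affymetrix array each. No ages of the mice are given, and no label says whether lines came from one tumour or one mouse, so p-values measure the spread between these clones. Values are log2 expression after the authors' normalization; 1 unit is a doubling, and levels of different regulators are not set against each other because each probe set has its own affinity.

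The arrays had medians between 5.02 and 5.09, and the median gene had a mean of 5.66 over the lines. The 8 deposited columns span only 7 independent directions, and ICC9 carries the largest weight in the missing one, at 0.782. The ICC9 values are thus nearly fixed by the other 7 columns, and the reason was not tested. The fits and correlations below count 8 separate lines, so their p-values and errors can look firmer than the data allow. Markers of other cell types were set against the median gene as a rough guide to signal, since probe sets differ in affinity. Of the endothelial markers, 0 of 8 had a mean above it. Of the leukocyte markers, 1 of 9 did, Cd68, a lysosomal protein of macrophages, which lay between 7.31 and 10.21 and was higher by 1.88 in the female-labelled ICC lines (limma adjusted p = 0.0313). Ptprc (CD45), which marks all leukocytes, lay between 3.40 and 3.99. Of the hepatocyte markers, 3 of 11 were above it, and Alb (albumin) was between 4.12 and 4.64 in every line of both types. Of the cholangiocyte markers, 6 of 8 were above it. Vim (vimentin) ran from 13.40 to 13.58 over the lines, and Fn1 (fibronectin) from 13.26 to 13.57.

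The sequences that the Snail and Zeb factors read are the starting point, because the junction genes that differed between lines can be set beside them. The E-box searched for was CACCTG or CAGGTG, which is the same motif on the 2 strands, in the 250 bases before each RefSeq transcription start (GRCm38.p6). It occurred in 19 of 32 promoters of the junction and epithelial genes listed as targets of these factors (59.4%, from 25 genes) and in 17.2% of all 32851 promoters. It occurred in 0 of 20 promoters of the listed mesenchymal genes. The share was also high for hepatocyte markers (45.5%), cholangiocyte markers (44.4%) and listed epithelial transcription factors (36.4%), so it is not particular to the target list. For leukocyte markers it was 12.5% and for endothelial markers 0%. A gene with several starts is counted once per start. Of the 10 regulators listed, 5 have a promoter in the RefSeq table (Snai1, Twist1, Twist2, Ovol2 and Zeb2, the last without expression values here), and 1 of them, Snai1, holds the motif. The Snai1 upstream sequence, which lies on the forward strand at chr2:167537945-167538194, is shown because Snail proteins are known to act on their own gene. Those of Cldn6, Krt18 and Spint2 are shown for the following reason. Of the 38 junction and epithelial genes measured, 8 passed the test inside a tumour type; 4 of these have a promoter in the table, and all of the 4 but Dsp hold the motif. The others, Cdh1, Krt19, Itgb4 and Llgl2, were not searched. In the whole target list 17 of the 25 genes with a promoter hold the motif, so these 4 genes cannot show a departure from that share. The list was made of known targets, so its share does not link the motif to the differences between lines. Capitals mark the E-box, 5′ to 3′ on the strand of the gene, and a match is a description of the letters only.
Snai1: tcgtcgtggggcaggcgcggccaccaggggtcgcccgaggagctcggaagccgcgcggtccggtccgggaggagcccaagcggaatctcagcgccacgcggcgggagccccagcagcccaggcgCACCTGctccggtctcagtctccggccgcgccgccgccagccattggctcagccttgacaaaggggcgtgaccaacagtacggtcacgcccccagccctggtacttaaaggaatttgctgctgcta
Cldn6: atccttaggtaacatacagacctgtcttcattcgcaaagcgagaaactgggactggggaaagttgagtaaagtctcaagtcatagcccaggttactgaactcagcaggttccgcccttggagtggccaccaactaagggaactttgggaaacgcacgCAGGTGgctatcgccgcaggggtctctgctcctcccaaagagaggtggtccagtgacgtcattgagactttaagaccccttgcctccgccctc
Krt18: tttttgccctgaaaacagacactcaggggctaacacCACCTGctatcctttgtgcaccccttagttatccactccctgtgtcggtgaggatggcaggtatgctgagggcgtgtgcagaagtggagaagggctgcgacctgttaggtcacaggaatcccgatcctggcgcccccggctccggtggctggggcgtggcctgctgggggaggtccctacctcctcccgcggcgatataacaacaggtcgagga
Spint2: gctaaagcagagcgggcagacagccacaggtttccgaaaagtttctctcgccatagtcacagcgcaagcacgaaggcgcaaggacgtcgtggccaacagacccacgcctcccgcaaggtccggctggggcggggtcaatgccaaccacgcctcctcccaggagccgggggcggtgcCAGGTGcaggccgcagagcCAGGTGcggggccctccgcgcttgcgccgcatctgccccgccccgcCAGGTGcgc
The Cldn6 stretch is chr17:23679115-23679364 on the forward strand, that of Krt18 is chr15:102027966-102028215 on the forward strand, and that of Spint2 is chr7:29281978-29282227 on the reverse strand. The motif begins 126 bases before the start in Snai1, 93 in Cldn6 and 214 in Krt18, and Spint2 has 3 copies, at 74, 55 and 9 bases. A second motif, AACNNGTT, which is bound by grainyhead-like factors such as Grhl2, occurred in 12.5% of the epithelial target promoters and 3.6% of all promoters.

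The miR-200 family holds down Zeb1 and Zeb2 in epithelial cells and is held down by them in turn. Its members fall into 2 groups by seed, bases 2 to 8 of the mature strand, which are in capitals below as RefSeq gives them.
miR-200b-3p: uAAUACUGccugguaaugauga
miR-200c-3p: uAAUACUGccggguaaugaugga
miR-429-3p: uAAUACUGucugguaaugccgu
miR-200a-3p: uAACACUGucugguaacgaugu
miR-141-3p: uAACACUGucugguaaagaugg
The first 3 share the seed AAUACUG and the last 2 share AACACUG. The array values are those of probe sets that carry the gene names, and which strand or precursor they read is not stated. Of the 6 family and partner genes listed, miR-205 included, 5 were measured. Mir200c lay between 3.61 and 4.74, and Mir141 between 1.99 and 3.24. None of the 5 passed the test in any comparison, and 1 had an unadjusted p under 0.05 inside the ICC lines, as did 21.9% of all genes.

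Among the drivers, Snai2 (Slug) had the largest SD over the lines, while Twist1 had the widest range. Its log2 expression was 9.23 in ICC9, 8.99 in ICC10, 11.10 in ICC2.7 and 10.68 in ICC2.9. In the HCC lines it was 10.38 in HCC1, 8.89 in HCC4, 8.87 in HCC2.1 and 8.97 in HCC2.4. The high lines were thus ICC2.7, ICC2.9 and HCC1, and the other 5 lay between 8.87 and 9.23, so the types overlapped. In the order of the 8 levels, the step of 1.15 from ICC9 to HCC1 was the only one of 7 larger than the standard deviation inside pairs of lines of one type and sex, 0.55. The spread of 0.92 (SD over 8 lines) put Snai2 at percentile 98.5 of all genes.

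Twist1 was highest in a different line. It measured 6.90 in ICC9, 7.23 in ICC10, 7.52 in ICC2.7 and 7.57 in ICC2.9, against 7.41 in HCC1, 8.95 in HCC4, 6.38 in HCC2.1 and 6.47 in HCC2.4. HCC4 stood above and the other male-labelled HCC line did not, while both female-labelled HCC lines were the lowest of all 8. The step from ICC2.9 up to HCC4, 1.38, was the only one above the spread of 0.56 inside pairs.

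Twist2, the close paralogue, had its extremes in the same pair of lines but the other way round. It was 8.32 in HCC1 and 6.13 in HCC4, a gap of 2.19, while HCC2.1 had 7.37 and HCC2.4 had 7.27. The ICC lines were close together at 7.19 in ICC9, 7.28 in ICC10, 7.59 in ICC2.7 and 7.32 in ICC2.9. HCC1 was therefore the highest line and HCC4 the lowest, with all others inside a range of less than 1 unit. The 2 probe sets each name 1 gene, but how far they share sequence was not tested.

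Snai1 (Snail) and Zeb1 moved over a smaller range. Snai1 was 6.95 in ICC9, 6.66 in ICC10, 7.53 in ICC2.7 and 7.13 in ICC2.9, and 6.78 in HCC1, 7.22 in HCC4, 7.26 in HCC2.1 and 7.04 in HCC2.4. Zeb1 was 6.84, 6.65, 7.42 and 7.01 in ICC9, ICC10, ICC2.7 and ICC2.9, and 6.58, 6.86, 6.69 and 6.70 in HCC1, HCC4, HCC2.1 and HCC2.4. Both genes were highest in ICC2.7, and their ranges, 0.87 and 0.84, were less than one unit. For each of them, 1 of 7 neighbouring steps exceeded the spread inside pairs.

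**Figure D1:**
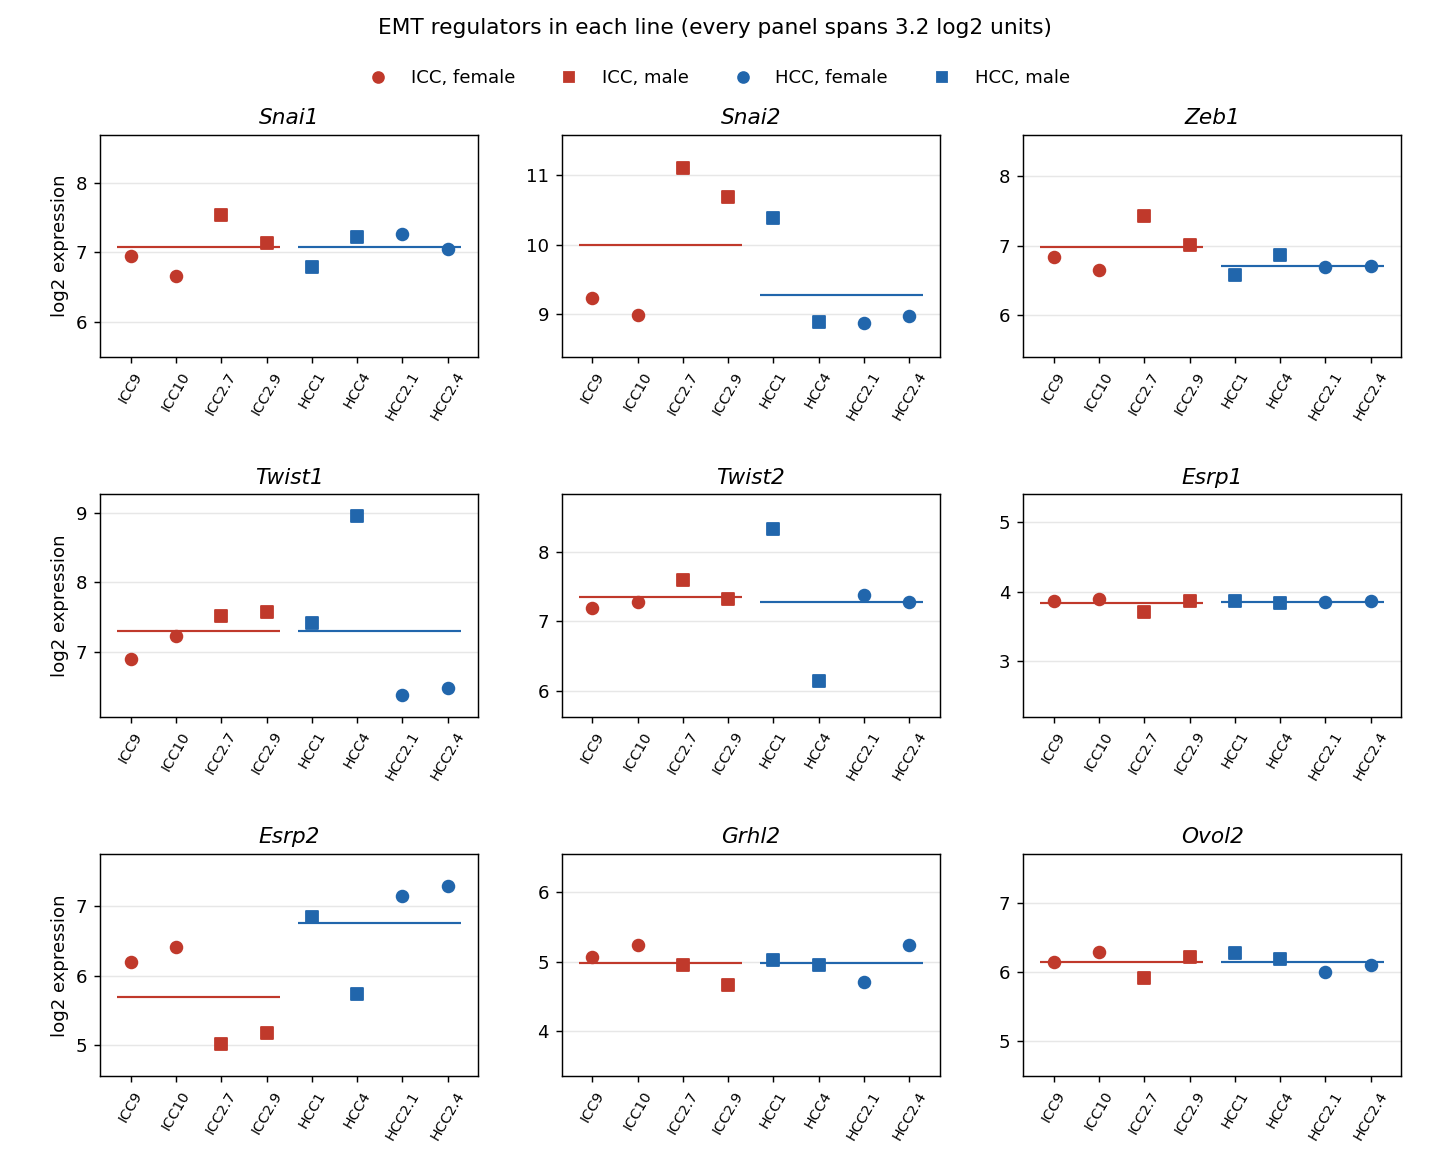
Log2 expression (vertical axis) of the 9 measured EMT regulators in each of the 8 lines (horizontal axis); red is ICC, blue is HCC, circles are female-labelled, squares male-labelled, and horizontal bars are the mean of each type. Snai2 is high in ICC2.7, ICC2.9 and HCC1, Twist1 is highest in HCC4, and Esrp1 stays between 3.71 and 3.89.

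On the epithelial side, Esrp2 was the one regulator with a wide range. It measured 6.20 in ICC9, 6.41 in ICC10, 5.01 in ICC2.7 and 5.18 in ICC2.9, and 6.85 in HCC1, 5.74 in HCC4, 7.15 in HCC2.1 and 7.29 in HCC2.4. The 3 lowest lines were ICC2.7, ICC2.9 and HCC4, and the 3 highest were HCC lines, with HCC4 alone placing the types in overlap. Of 7 neighbouring steps in its order, 3 were larger than the spread of 0.41 inside pairs. Its SD over 8 lines, 0.86, was at percentile 98.2 of all genes.

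The paralogue Esrp1 was flat. It lay between 3.71 in ICC2.7 and 3.89 in ICC10, and its spread was at percentile 0.9 of all genes. Grhl2 was between 4.66 in ICC2.9 and 5.24 in ICC10 and HCC2.4, with a mean of 4.98 that was also below the median gene (percentile 38.0). Ovol2 was between 5.91 in ICC2.7 and 6.28 in ICC10, and no step in its order exceeded the spread of 0.13 inside pairs.

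The first comparison, ICC against HCC, asks whether tumour type goes with a different EMT state. None of the 9 regulators passed the test (limma, adjusted p under 0.05 over all genes); 58 of all 22180 genes did, 0.261%. The levels of the types overlapped for all 9. Over all genes 8.63% had no overlap between types, a share too small for 9 genes to show a departure from it. The difference furthest from 0 was that of Esrp2, at 5.70 ± 0.71 in ICC and 6.76 ± 0.70 in HCC (SD, n = 4). Its ICC minus HCC difference was -1.06 (SE 0.42, 95% interval -2.0 to -0.11), with a limma adjusted p = 0.304. When only the lines labelled female were fitted, 2 of each type, Esrp2 was lower in ICC (-0.92, limma adjusted p = 0.0335). That fit called 696 genes, against 58 in the main fit. It sets ICC9 and ICC10 against HCC2.1 and HCC2.4, so type cannot be told apart from the split by line name. Across all alternatives the Esrp2 difference ran from -1.40 to -0.83 and passed the test only in the female lines.

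The drivers differed less, or with wider error. Snai2 averaged 10.00 ± 1.05 in ICC and 9.28 ± 0.74 in HCC (SD, n = 4), a difference of 0.72 with an interval of -0.48 to 1.93. Zeb1 differed by 0.27, with an interval of -0.09 to 0.63. For Twist1 the 2 means were equal to the second decimal, yet the interval of -1.16 to 1.16 leaves room for a doubling either way. The intervals were narrow for Esrp1, -0.19 to 0.15, and for Ovol2, -0.24 to 0.24. The Esrp1 signal was low in every line, so its narrow interval does not show equal expression. Over the 9 regulators the median difference was 0.00, as it was over all genes. The 9 mix drivers with regulators that oppose them, so this median does not describe an EMT state.

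**Figure D2:**
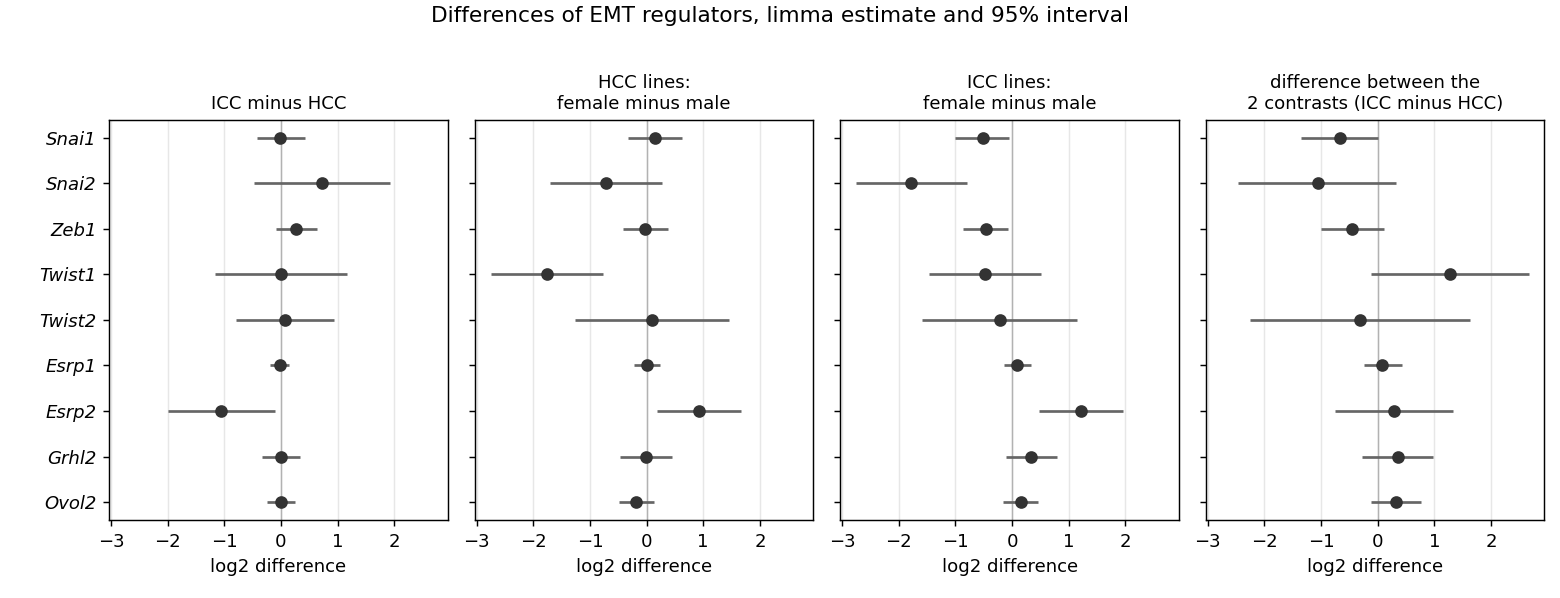
Log2 differences (horizontal axis) of the 9 regulators (vertical axis) in 4 comparisons: ICC minus HCC, female minus male inside HCC, female minus male inside ICC, and the difference between those last contrasts; points are limma estimates and bars 95% intervals. Esrp2 lies below 0 for ICC minus HCC and above 0 for both female minus male contrasts, and Snai2 and Twist1 lie furthest below 0 inside ICC and HCC respectively.

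Each type splits by label into 2 female and 2 male lines, and setting these against each other asks how the regulators vary inside a type. With 2 clones in each group, sex and clone cannot be told apart. The split by sex is also a split by name, ICC9 and ICC10 against ICC2.7 and ICC2.9. In HCC it sets HCC2.1 and HCC2.4 against HCC1 and HCC4. If lines with like names share a tumour or mouse, which no label says, each contrast sets a single source against another. Inside ICC the male-labelled lines had more Snai2, 10.89 on average against 9.11 in the female-labelled lines. The female minus male difference was -1.78 (SE 0.42, limma adjusted p = 0.0635). Esrp2 went the other way, at 6.30 in the female-labelled pair and 5.09 in the male-labelled pair, a difference of 1.21 (SE 0.31, limma adjusted p = 0.0792). Zeb1 was lower in the female-labelled pair by 0.47 and Snai1 by 0.52 on the log2 scale, with limma adjusted p-values of 0.162 and 0.192.

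Thus 0 of 9 regulators passed inside ICC, where 886 genes did, 3.99% of those tested, while 4 of the 9 had an unadjusted p under 0.05, as did 21.9% of all genes. Esrp2 and Snai2 both passed when genes below the median were left out of the table (adjusted p = 0.0486 and 0.0384). Without HCC1, or without HCC4, the differences stayed at -1.78 for Snai2 and 1.21 for Esrp2. Both passed there, but so did far more genes than the 886 of the main fit. Leaving out one of the ICC lines, which make up the contrast, gave adjusted p-values from 0.148 to 0.452 for Snai2 and from 0.188 to 0.525 for Esrp2, and each gene passed in 3 of the settings tried. HCC1 and HCC4 are not part of the contrast but enter the estimate of spread, and they lie 1.49 apart in Snai2 and 1.11 apart in Esrp2. Each pair of ICC lines lay within 0.42 of each other for Snai2 and 0.21 for Esrp2.

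Inside HCC, Twist1 was lower in the female-labelled lines, at 6.42 on average against 8.18. The difference was -1.75 (SE 0.42, limma adjusted p = 0.0802). Esrp2 was again higher in the female-labelled pair, at 7.22 against 6.29, with a difference of 0.93 (SE 0.31, limma adjusted p = 0.165). Snai2 differed by -0.72 (SE 0.42), and by 0.03 when HCC1 was left out, since HCC4 was at the level of the female-labelled lines. None of the 9 passed, where 589 genes did, 2.66% of those tested.

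These HCC values rest on how HCC1 and HCC4 are combined. Without HCC1 the female minus male differences were -2.52 for Twist1, 1.48 for Esrp2, 0.03 for Snai2 and 1.19 for Twist2. Without HCC4 they were -0.99 for Twist1, 0.37 for Esrp2, -1.46 for Snai2 and -1.0 for Twist2. The sign of Twist2 therefore turned with the male-labelled line that was kept, and Twist1 and Esrp2 kept theirs. In each of these fits 1 male-labelled HCC line remained and was assumed to vary like the other groups, so only the sizes are given.

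The difference between the 2 within-type contrasts was tested directly, and none of the 9 regulators passed; 0 of 22180 genes did, 0% of those tested, while 4467 had an unadjusted p under 0.05. The same contrast sets the 4 lines with names beginning 2 after the type (ICC2.7, ICC2.9, HCC2.1, HCC2.4) against the other 4, so the 2 readings cannot be told apart. None of the 9 had an unadjusted p under 0.05 in it. For Twist1 the estimate was 1.27 with an interval of -0.12 to 2.67, and for Snai2 it was -1.06 with an interval of -2.46 to 0.33. For Esrp2 it was 0.28 with an interval of -0.76 to 1.33.

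Pooling both types, with type in the model, was added after the values had been seen. In that fit Esrp2 was higher in the female-labelled lines by 1.07 (SE 0.22, limma adjusted p = 0.0460), and it was the 1 regulator of 9 that passed; 653 genes did, 2.94%. Leaving out a line kept the direction in all 8 cases, with estimates from 0.87 to 1.32, but the adjusted p was under the threshold only without HCC1 (0.0024) and otherwise between 0.0533 and 0.152. With the missing direction as a model term the call was also lost (1.07, adjusted p = 0.0972). Snai2 was lower by 1.25 (SE 0.34, limma adjusted p = 0.107) and passed without HCC4, at -1.65 (adjusted p = 0.0040). Twist1 was lower by 1.12 (SE 0.36, limma adjusted p = 0.166) and also passed without HCC4, at -0.68 (adjusted p = 0.0475).

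Junction and other epithelial genes that the drivers are known to repress were followed as a list of 40, of which 38 were measured. Inside HCC, 5 of 38 were called higher in the female-labelled lines and 0 lower, where 1.44% of all genes were higher and 1.22% lower. Inside ICC 6 were higher and 0 lower, against 1.92% and 2.08% of all genes. The median differences were 0.30 and 0.29, against 0.00 and 0.02 over all genes. Cldn6, a tight junction claudin, was 9.61 in HCC2.1 and 9.77 in HCC2.4 against 5.09 in HCC1 and 4.58 in HCC4, and was 10.47 in ICC9 and 9.87 in ICC10 against 7.34 in ICC2.7 and 6.89 in ICC2.9. It rose in the female-labelled lines of both types, by 4.86 in HCC (limma adjusted p = 0.000741) and 3.06 in ICC (adjusted p = 0.0038), and passed under all 13 alternatives in each.

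Cdh1 (E-cadherin), the best known target of the Snail and Zeb proteins, was 8.44 in HCC2.1 and 8.43 in HCC2.4, against 6.73 in HCC1 and 5.23 in HCC4. In the ICC lines it was 6.51 in ICC9, 6.02 in ICC10, 5.27 in ICC2.7 and 5.72 in ICC2.9. The difference inside HCC was 2.46 (SE 0.44, limma adjusted p = 0.0384) and passed in 5 of 13 alternatives. Inside ICC the difference was 0.77 (SE 0.44, limma adjusted p = 0.354). The 4 lines with the lowest Cdh1 were HCC4, ICC2.7, ICC2.9 and ICC10, the first 3 of which also had the lowest Esrp2.

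Other epithelial genes differed inside ICC. Dsp (desmoplakin, of desmosomes) was 8.91 in ICC9 and 9.58 in ICC10 against 6.71 in ICC2.7 and 6.92 in ICC2.9. It rose in the female-labelled lines by 2.43 (limma adjusted p = 0.0039) and passed in all 13 alternatives. Spint2, an inhibitor of serine proteases at the epithelial surface, rose by 2.25 (adjusted p = 0.0084), and Krt18 by 1.21 (adjusted p = 0.0378). Krt19, the biliary cytokeratin, rose in the female-labelled lines of both types, by 2.48 in ICC (adjusted p = 0.0128) and 1.90 in HCC (adjusted p = 0.0356). Itgb4, the integrin beta-4 of hemidesmosomes, rose by 1.73 in the female-labelled HCC lines (adjusted p = 0.0103). The Krt18 call held in 6 of 13 alternatives and the HCC call of Krt19 in 5 of 13.

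Krt8, the partner of Krt18, lay between 11.25 and 11.29 in 3 HCC lines and at 8.48 in HCC4, and was 11.10, 11.41, 9.88 and 9.65 in ICC9, ICC10, ICC2.7 and ICC2.9. It passed in no comparison. Epcam was between 4.14 and 5.12 in every line. Ocln (occludin) lay between 5.33 and 6.56 in the ICC lines and between 6.98 and 8.79 in the HCC lines, without overlap. The ICC minus HCC difference was -1.79 (SE 0.41, limma adjusted p = 0.113). Between the types, 0 of 38 epithelial genes passed, where 0.261% of all genes did.

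**Figure D3:**
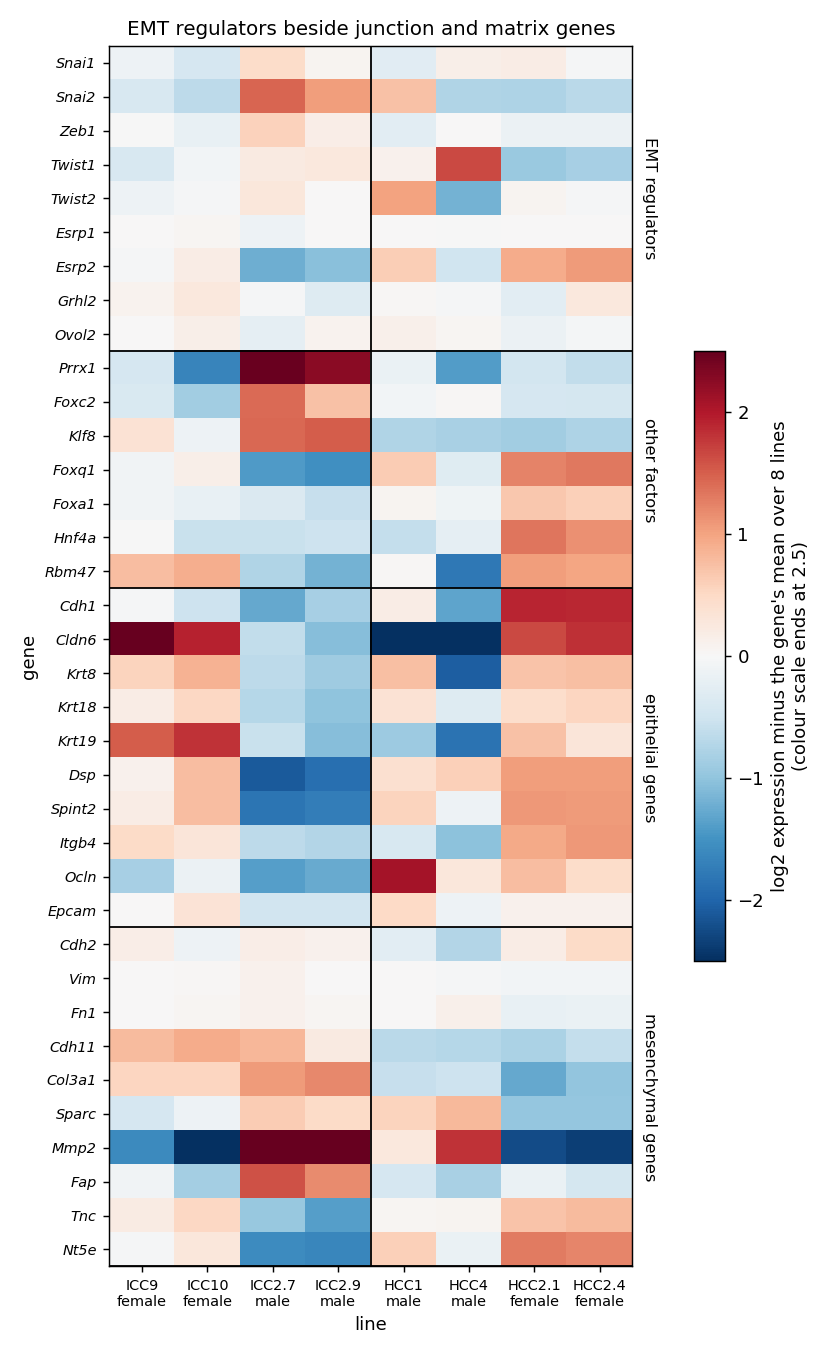
Log2 expression of each gene minus its own mean over the 8 lines (colour; the scale ends at 2.5), for the EMT regulators, other factors, epithelial genes and mesenchymal genes (rows) in each line with its labelled sex (columns). ICC2.7 and ICC2.9 are above the gene mean for Snai2, Prrx1 and Mmp2 and below it for Esrp2, Dsp and Spint2; HCC4 is below it for Esrp2, Krt8 and Cdh1 and highest for Twist1.

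Of 34 mesenchymal genes listed as targets, 31 were measured. Between the types 2 of these 31 passed, where 0.261% of all genes did. Cdh11, a mesenchymal cadherin, was 6.10, 6.24, 6.15 and 5.54 in the ICC lines in the order above and between 4.52 and 4.71 in all HCC lines. It was higher in ICC by 1.39 (SE 0.15, limma adjusted p = 0.0140). Col3a1, a fibrillar collagen, was between 6.67 and 7.34 in ICC and between 4.87 and 5.63 in HCC, a difference of 1.67 (SE 0.22, limma adjusted p = 0.0252). These 2 were the only ones of the 31 that passed between types, and the call held in 11 of 17 alternatives for Cdh11 and 11 of 18 for Col3a1. Leaving out ICC9, ICC2.7, HCC2.1 or HCC2.4 ended both calls, with adjusted p-values of up to 0.0696 and 0.101. Some of the alternatives that change the model or its input also ended each call, with limma adjusted p-values of up to 0.0979 for Cdh11 and 0.0818 for Col3a1.

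Inside the types, Mmp2, a gelatinase, was 11.09 in ICC2.7 and 10.88 in ICC2.9 against 6.09 in ICC9 and 5.20 in ICC10. It was 7.95 in HCC1 and 9.50 in HCC4 against 5.46 in HCC2.1 and 5.33 in HCC2.4. The female minus male difference was -5.34 in ICC (limma adjusted p = 0.0042, passed in all 13 alternatives) and -3.33 in HCC (adjusted p = 0.0216, passed in 9 of 13). Sparc, a matrix glycoprotein, fell by 1.66 in HCC on the log2 scale (adjusted p = 0.0037).

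In all, 2 of 31 mesenchymal genes were lower and 0 higher in the female-labelled HCC lines, beside the 1.22% lower and 1.44% higher of all genes. In the female-labelled ICC lines 6 were lower and 2 higher, beside 2.08% and 1.92%. The 2 higher ones were Nt5e (CD73), by 1.73, and Tnc (tenascin C), by 1.51 (limma adjusted p = 0.0142 and 0.0082). Fap, the fibroblast activation protein, was among those lower, by 1.86 on the log2 scale. Cdh2 (N-cadherin), Vim and Fn1 passed in no comparison. The mean level of 11 fibroblast and stellate markers ran from 5.13 in ICC10 to 6.33 in ICC2.7, with 3 of 11 above the median gene. It was 6.33 and 6.00 in ICC2.7 and ICC2.9, 5.40 and 5.13 in ICC9 and ICC10, and 5.53 to 5.93 in HCC; its part in the results was not tested.

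Other transcription factors of the EMT programme were followed as 14 mesenchymal and 14 epithelial factors, 12 of each measured. Inside ICC, 4 of 12 mesenchymal factors passed: Prrx1, a homeobox factor of mesenchyme, differed by -3.40 (female minus male), Foxc2, a forkhead factor, by -1.70, Klf8 by -1.35 and Foxq1 by 1.5. Their limma adjusted p-values were 0.0142, 0.0150, 0.0094 and 0.0306. Prrx1 reached 9.57 in ICC2.7 and 9.36 in ICC2.9 and lay between 5.45 and 6.93 in the other 6 lines. Inside HCC, 1 of 12 passed, Tcf4 (E2-2), at -0.90 (limma adjusted p = 0.0472, passed in 4 of 13 alternatives). Over all genes 3.99% passed inside ICC and 2.66% inside HCC, and 1 call in 12 is too few to show a departure from the latter.

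Among the epithelial factors, 1 of 12 passed, Foxa1, a pioneer factor of liver and biliary cells, higher by 0.66 in the female-labelled HCC lines (limma adjusted p = 0.0412, passed in 5 of 13 alternatives). Inside HCC 2.66% of all genes passed, and 1 call in 12 is too few to show a departure from that share. Hnf4a, the main hepatocyte factor, was 7.26 in HCC2.1 and 7.06 in HCC2.4 and between 5.32 and 5.92 in the other 6 lines. Its difference inside HCC was 1.65 (SE 0.21, limma adjusted p = 0.0130). Apob, a hepatocyte secretory gene, was 8.80 and 8.79 in those 2 lines and between 3.69 and 5.34 elsewhere. These 2 were the hepatocyte markers called inside HCC, out of 11; 7 of the 11 differences were positive and 4 negative, with a median of 0.04. HCC2.1 and HCC2.4 were thus high in Cdh1, Esrp2, Hnf4a and Apob, and the part of the hepatocyte genes was not tested.

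Genes of the proteins that work with the regulators were counted in the same way. Over all genes 0.261% were called between the types, 2.66% inside HCC and 3.99% inside ICC. Lists this short cannot show a departure from these shares. Of 10 splicing factors that share targets with the Esrp proteins, 0 passed in the planned comparisons. Rbm47, an RNA-binding protein with epithelial targets, was 6.69, 6.83, 5.17 and 4.75 in ICC9, ICC10, ICC2.7 and ICC2.9, and 5.96, 4.13, 6.97 and 6.91 in HCC1, HCC4, HCC2.1 and HCC2.4. Its female minus male difference was 1.8 in ICC and 1.90 in HCC (limma adjusted p = 0.0923 and 0.101). Of 11 measured genes whose splicing the Esrp proteins set, 1 passed, Enah, a regulator of actin, higher by 1.09 in the female-labelled ICC lines (limma adjusted p = 0.0413). The array values used here are 1 per gene, so isoforms were not analysed.

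Of 14 co-repressors and chromatin partners of the Snail and Zeb proteins 1 passed. This was Ajuba, an adaptor that binds Snail, at 0.71 inside HCC (limma adjusted p = 0.0480, passed in 5 of 13 alternatives), where 2.66% of all genes passed. Of 11 measured enzymes that set the stability of these proteins and of 16 genes of the TGF-beta and BMP inputs, 0 passed in any planned comparison. These lists are also too short to show a departure from the shares over all genes. The lowest adjusted p among the inputs was that of Bmp4 inside ICC, higher in the female-labelled lines by 1.77 (SE 0.39, limma adjusted p = 0.0550). Bmp7 was next, higher by 1.59 in the female-labelled HCC lines (SE 0.33, limma adjusted p = 0.0559).

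Across the 8 lines the regulators can be set against each other, as a description in which every point of one line comes from one array. The pairs named here were picked without a fixed rule, and the regulators alone form 36 pairs. Zeb1 and Esrp2 ran in opposite directions (Pearson r = -0.84, Spearman rho = -0.79, n = 8), and Snai1 and Zeb1 ran together (r = 0.78, rho = 0.69, n = 8). Pairs with regulators of small spread reached similar values, such as Zeb1 with Esrp1 (r = -0.88) and Snai1 with Ovol2 (r = -0.85). Esrp2 went with Cdh1 (r = 0.88, n = 8), and Snai2 with Prrx1 (r = 0.89, n = 8) and against Dsp (r = -0.88, n = 8). Snai2 and Esrp2 had r = -0.64, with HCC1 high in both and HCC4 at the low end of Snai2 and near the low end of Esrp2. Twist1 ran against Rbm47 (r = -0.89, n = 8) and Cdh1 (r = -0.82, n = 8).

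**Figure D4:**
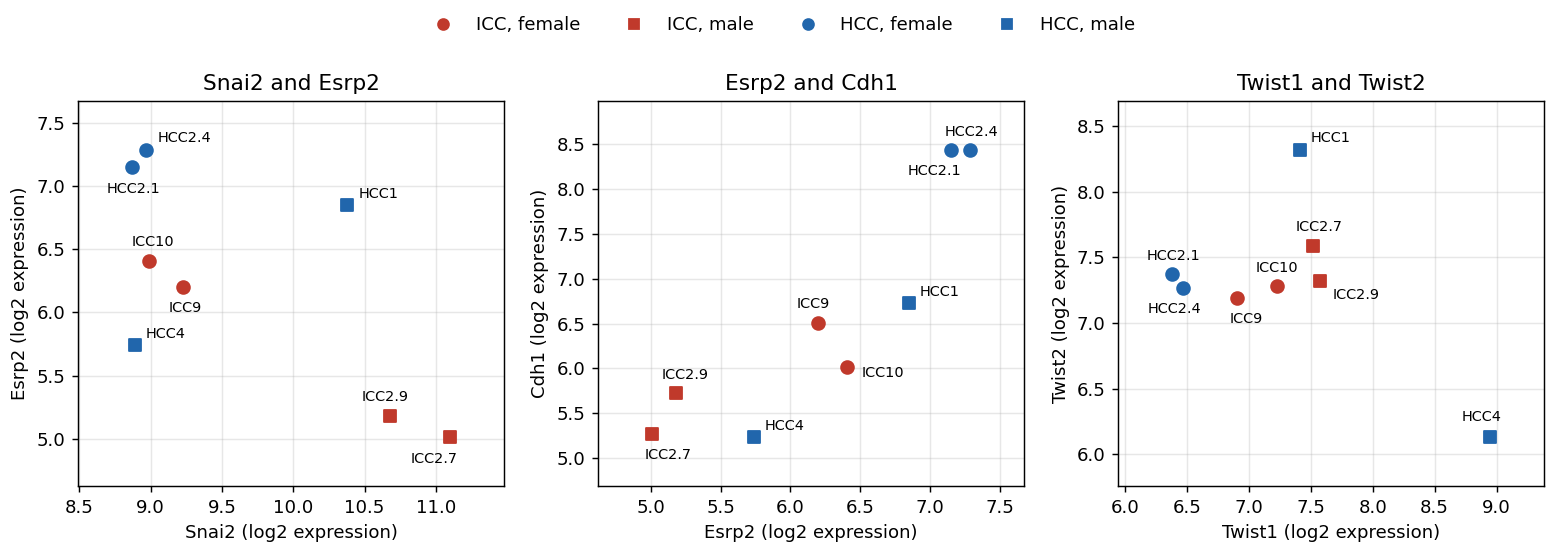
Log2 expression of one gene against another in the 8 lines (Snai2 and Esrp2, Esrp2 and Cdh1, Twist1 and Twist2); red is ICC, blue is HCC, circles are female-labelled and squares male-labelled. HCC1 combines high Snai2 (10.38) with high Esrp2 (6.85), Esrp2 and Cdh1 are both low in ICC2.7 and high in HCC2.4, and HCC1 and HCC4 are the extremes of Twist2.

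For the 4 regulators with an SD of at least 0.5, the genes with the most similar pattern were sought among 1340 genes (predicted genes, small RNAs and receptor families of smell left out) with an SD at least as large. Snai2 was matched most closely by Trib3 (r = 0.981), Foxs1 (r = 0.981) and Mtbp (r = 0.962), and Twist1 by Peg10 (r = 0.979), Mef2c (r = 0.957) and Smarca1 (r = 0.944), all over 8 lines. Esrp2 was matched by Als2cl (r = 0.992), Elmod1 (r = 0.991) and Gpm6b (r = 0.989). Als2cl was 5.03 in ICC2.7 and 5.23 in ICC2.9 and 7.76 and 7.88 in HCC2.1 and HCC2.4, and its order over the lines was the same as that of Esrp2. Twist2 had looser matches, Iqgap2 (r = 0.924, rho = 0.55), Adgrl2 (r = 0.886, rho = 0.55) and Chst2 (r = 0.883, rho = 0.88), of which the first 2 share its extremes in HCC1 and HCC4 but not the order of the lines between.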

How the data were processed

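RNA from 8 clonal lines, 100 ng each, was hybridised to Affymetrix arrays, 1 per line, per the labels. The deposited values are log2 expression, made by the authors with RMA in the oligo package per the submitters' processing notes; neither version is stated in the material at hand. RMA corrects background and evens out the arrays' distributions, so a shift common to all genes would not be seen. The table has 39993 probe sets, and 23521 name 1 gene. For each of 22180 genes the probe set with the highest mean was kept. With 1 array per line, precision is limited by how many lines there are.

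Differences were fitted with limma 3.58.1 in R 4.3.3 (lmFit, eBayes, two-sided, Benjamini-Hochberg over all 22180 genes, called at an adjusted p under 0.05). ICC minus HCC was fitted on all 8 lines. The within-type contrasts and the difference between them came from a model of 4 groups (type and labelled sex). Residual degrees of freedom were 6 and 4, counting all 8 columns as independent. The fit was also run on simulated data with independent noise in each line. That setting leaves out the missing direction and any likeness between lines of one type and sex. It therefore does not test the p-values under those features.

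The regulators and the gene lists were chosen with earlier results of these data known, and the comparison pooled over both types was added after its values were seen. Genes named beside the regulators were 10 junction, cytokeratin and identity genes in every case. From each pathway list and comparison up to 4 called genes with the largest differences were added, or, with under 2 calls, the 2 genes of lowest p. All called genes of this rule are given with values, and part of the others, picked after their values were seen. Apob, Cd68 and Sox9, from the marker lists, were named after their values were seen. For each regulator with an SD of at least 0.5, the 3 genes with the highest correlation were named. The comparisons share lines, so their calls are not independent. Alternatives were the eBayes settings, a filter on dim genes, quantile normalization, averaging all probe sets that name a gene, the missing direction or labelled sex as a model term, a random block for lines of one type and sex, the female or male lines alone, and each line left out in turn. Replicates 1 to 4 are numbered in the order of the samples, with ICC9 and HCC1 first, then ICC10 and HCC4, then ICC2.7 and HCC2.1, then ICC2.9 and HCC2.4.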

Additional observations from a re-analysis of the deposited data

Results flagged for a closer look

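Of 152 groups of 4 lines checked, covering 76 genes in each type, 7 held a line far from the other 3 by Dixon's test; chance alone marks about 1 in 20 such groups. Among the regulators, Snai2 was 10.38 in HCC1 and between 8.87 and 8.97 in the other HCC lines. Esrp1 was 3.71 in ICC2.7 against 3.86 to 3.89 in the other ICC lines. In HCC4, Krt8 was 8.48 against 11.25 to 11.29 in the other HCC lines, Hdac1 was 10.50 against 10.79 to 10.84, and Ezh2 was 8.27 against 9.21 to 9.30. Vim was 13.58 in ICC2.7 against 13.49 to 13.50, and Hnf4a was 5.92 in ICC9 against 5.36 to 5.40.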

How the results depend on the processing

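Between the types, no regulator passed in any alternative except Esrp2 in the female lines alone, where 1 was called. Against 58 genes called there, the count was 103 with genes above the median only, 12 with the missing direction as a term, 428 with sex as a term, 119 with both terms, 6 with the random block, 696 in the female lines and 200 in the male lines, and 2 to 109 with a line left out (2 without ICC9, 16 without ICC2.7, 28 without ICC2.9, 4 without HCC2.1, 5 without HCC2.4, 109 without HCC1, 91 without HCC4). Inside HCC, against 589, it was 948 with trend and robust eBayes settings, 1044 with genes above the median only, 377 with the missing direction, and 29 to 1111 with a line left out (29 without HCC2.1 or HCC2.4, 308 without ICC9 or ICC10, 270 without ICC2.7 or ICC2.9, 1111 without HCC1); of the regulators 1 was called with genes above the median only (Twist1, adjusted p = 0.0494), 1 in the pooled fit and 0 to 3 with a line left out. Inside ICC, against 886, it was 1403 with trend and robust eBayes settings, 1515 with genes above the median only and 82 to 1857 with a line left out (412, 95, 82 and 158 without ICC9, ICC10, ICC2.7 and ICC2.9, 349 without HCC2.1 or HCC2.4, 1857 without HCC1 or HCC4); of the regulators 2 were called with genes above the median only, 1 in the pooled fit and 0 to 2 with a line left out. For the difference between the contrasts, 255 genes were called with the missing direction as a term and 0 to 238 with a line left out (238 without ICC9, 10 without ICC10). The causes of these shifts were not tested. No paired analysis was possible because the labels give the lines no replicate numbers.

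The signs that turned all belong to differences that had not passed. Between the types, the male lines alone gave 0.33 for Snai1, -0.64 for Twist1 and -0.17 for Grhl2, and the female lines alone gave -0.09 for Twist2, 0.02 for Esrp1, -0.32 for Cdh2, 0.07 for Epcam, -0.15 for Mir200c, -0.15 for Mir141 and -0.11 for Ezh2. Quantile normalization gave -0.01 for Twist1 and 0.00 for Grhl2. Inside HCC it gave 0.01 for Zeb1 and 0.01 for Grhl2, the missing direction gave 0.01 for Zeb1 and 0.00 for Esrp1, and the pooled fit gave -0.19 for Snai1, -0.06 for Twist2, 0.17 for Grhl2, 0.29 for Epcam and 0.13 for Ocln. Inside ICC the pooled fit gave -0.01 for Ovol2 and 0.35 for Cdh2, and the mean of probe sets gave 0.08 for Vim; quantile normalization gave -0.04 for the Vim difference between contrasts. The causes were not tested.

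With a line left out, the differences between types ran from -0.16 to 0.13 for Snai1, -0.30 to 0.55 for Twist1, -0.31 to 0.42 for Twist2, -0.04 to 0.02 for Esrp1, -0.09 to 0.11 for Grhl2, -0.06 to 0.34 for Cdh2 and -0.77 to 0.22 for Krt8. Inside HCC they ran from -0.07 to 0.37 for Snai1, -1.46 to 0.03 for Snai2, -0.17 to 0.11 for Zeb1, -1.0 to 1.19 for Twist2, -0.01 to 0.01 for Esrp1, -0.27 to 0.26 for Grhl2, -0.39 to 0.23 for Epcam, -0.02 to 2.79 for Krt8 and -1.48 to 0.33 for Ocln. Inside ICC they ran from -0.01 to 0.30 for Ovol2, -0.27 to 0.02 for Cdh2, -0.09 to 0.00 for Vim and -0.02 to 0.54 for Hnf4a. For the difference between contrasts they ran from -1.41 to 0.78 for Twist2, -0.27 to 0.84 for Esrp2, -0.03 to 0.06 for Vim and -1.30 to 1.51 for Krt8. The 2 clones in each group of type and sex limit what these contrasts can show.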

Other observations

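Mprip, whose splicing the Esrp proteins set, was 10.04 in HCC1 and 10.02 in HCC4 and between 10.28 and 10.61 in the other lines; its difference inside HCC, 0.57 (SE 0.11), did not pass the test. Lats2, a Hippo pathway kinase that acts on Snail, differed by -0.50 inside ICC (SE 0.12, limma adjusted p = 0.0682), and Usp27x, a deubiquitinase of Snail, by -0.72 between the types (SE 0.24, limma adjusted p = 0.232).

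Tgfb3, a ligand of the TGF-beta pathway, was between 8.73 and 9.03 in the ICC lines and between 8.36 and 8.68 in the HCC lines, without overlap, and the difference of 0.42 did not pass (SE 0.10, limma adjusted p = 0.132). Klf8 was between 6.11 and 7.75 in ICC and between 5.37 and 5.49 in HCC, also without overlap (difference 1.59, SE 0.34, limma adjusted p = 0.101). Sox9, a biliary and progenitor factor, was between 11.45 and 11.86 in all 8 lines of both types.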
